A study of Mus musculus with 18 samples.

Results

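The 5 genes Fpr1, Fpr2, Ltb4r1, Ptafr and Gpr35, taken by symbol from a table of 17941 genes, encode receptors for formyl peptides and for lipid and other small metabolite attractants. All 5 were among the 10104 genes with enough counts to be tested. Their levels were measured by RNA sequencing of splenic neutrophils of untreated female NZBWF1/J mice. Animals of this cross of NZB and NZW parents become ill with age in a way that resembles human lupus. The series sets 3 stages of the illness side by side, at 14 weeks, 20 weeks and 26 weeks of age, with 6 libraries at each age, labelled as biological replicates and counted here as 1 mouse each. All groups share strain, sex, organ and sort, and no other strain enters the comparison, so age and stage of disease cannot be told apart. Live singlets, which excluded DAPI, were sorted when they carried Ly6B, CD11b and Ly6G and had intermediate staining for Ly6C.

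Neutrophils find sites of infection or tissue damage by sensing chemical gradients through receptors coupled to inhibitory G proteins. Formyl peptide receptors bind N-formylated peptides, which are released by bacteria and by mitochondria of damaged cells. Leukotriene B4 and platelet-activating factor are lipids that activated leukocytes make within minutes, and they relay and amplify the first signal. Gpr35 was long an orphan receptor, and the tryptophan product kynurenic acid is among its proposed ligands.

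Fpr1 and Fpr2 are neighbours on mouse chromosome 17 (GRCm38, GENCODE M21 gene models). Fpr1 lies on the minus strand at chr17:17876471-17883940 and Fpr2 on the plus strand at chr17:17887824-17893952, so that they are read away from each other from start sites 3884 bases apart. Ltb4r1 lies on the plus strand at chr14:55765962-55768494, Ptafr on the plus strand at chr4:132564067-132582683 and Gpr35 on the plus strand at chr1:92950865-92986391. The merged exons measure 1324 bases in Fpr1, 1296 in Fpr2, 1394 in Ltb4r1, 3637 in Ptafr and 4839 in Gpr35, the last over 6 annotated transcripts. Fpr2 alone shares exon bases with another gene model: 48 bases (3.70%) overlap Fpr3 on the same strand, and Fpr3 had at most 1 count in any library. No stretch of 100 bases, the length of a read, occurs in transcripts of more than 1 of these receptors or in Fpr3, Fpr-rs3, Fpr-rs4, Fpr-rs6, Fpr-rs7 or Ltb4r2.

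The promoter windows of the neighbours Fpr1 and Fpr2 are shown because the ratio of their transcripts was changed at 26 weeks and not detectably at 20 weeks, relative to 14 weeks. Those of Ltb4r1 and Ptafr are shown because they moved in opposite directions. Each window runs from 250 bases before to 50 bases after the start site on the gene's own strand (RefSeq, GRCm38.p6). It was searched on both strands for GAGGAA (the core bound by PU.1), TTGCNNAA (C/EBP), TGANTCA (AP-1), TTCNNNGAA (STAT factors), GAAANNGAA (interferon response factors) and TGACGTCA (CREB). Capitals mark the matches, none of which overlap.
Fpr1, chr17:17883890-17884189, minus strand: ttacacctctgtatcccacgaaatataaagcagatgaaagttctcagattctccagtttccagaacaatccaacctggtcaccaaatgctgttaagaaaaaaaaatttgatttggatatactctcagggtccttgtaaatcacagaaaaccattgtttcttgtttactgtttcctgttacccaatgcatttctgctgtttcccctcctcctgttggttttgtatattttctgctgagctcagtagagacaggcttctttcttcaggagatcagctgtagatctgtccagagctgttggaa
Fpr2, chr17:17887574-17887873, plus strand: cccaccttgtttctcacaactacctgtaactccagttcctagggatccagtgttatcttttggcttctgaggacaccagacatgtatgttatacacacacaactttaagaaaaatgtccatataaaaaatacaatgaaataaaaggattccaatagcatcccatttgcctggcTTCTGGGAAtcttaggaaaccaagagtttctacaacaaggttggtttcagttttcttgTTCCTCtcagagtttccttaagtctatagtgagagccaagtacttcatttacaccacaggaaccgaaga
Ltb4r1, chr14:55765712-55766011, plus strand: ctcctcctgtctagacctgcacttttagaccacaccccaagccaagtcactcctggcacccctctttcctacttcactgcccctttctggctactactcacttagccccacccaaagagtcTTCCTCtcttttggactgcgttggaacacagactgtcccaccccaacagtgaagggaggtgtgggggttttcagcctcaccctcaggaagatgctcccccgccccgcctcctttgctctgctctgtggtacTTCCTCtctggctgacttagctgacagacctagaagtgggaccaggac
Ptafr, chr4:132563817-132564116, plus strand: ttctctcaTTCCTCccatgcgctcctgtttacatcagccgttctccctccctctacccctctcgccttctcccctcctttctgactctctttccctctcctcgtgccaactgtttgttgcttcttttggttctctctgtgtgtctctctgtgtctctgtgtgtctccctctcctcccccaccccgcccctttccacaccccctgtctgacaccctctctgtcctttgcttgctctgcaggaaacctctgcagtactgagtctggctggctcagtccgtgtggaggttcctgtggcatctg
The window of Fpr1 held none of the 6 motifs. That of Fpr2 held a STAT motif and a PU.1 core, that of Ltb4r1 held 2 PU.1 cores, and that of Ptafr held 1. Gpr35 has 2 such windows, of which the first held none of the motifs and the second held 2 PU.1 cores and an AP-1 motif. Over the 32851 windows of 300 bases in the same table, 28.3% held a PU.1 core, 8.30% a STAT motif and 7.81% an AP-1 motif. The C/EBP, interferon response and CREB motifs were in 10.8%, 8.56% and 1.79%. These matches describe letters only, and binding was not measured.

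Libraries held 5546624 to 17256379 counts and 8119 to 13164 detected genes. Replicate 3 of 20 weeks, the library with 8119 genes, stood apart from its age with a median correlation of 0.756 to the others. Of the neutrophil markers, 13 of 14 had counts at 14 weeks and at 20 weeks, where Elane was at 0, and 14 of 14 had counts at 26 weeks. Their summed level (lowest, median and highest library) was 136400, 166000 and 195800 CPM at 14 weeks, 48330, 81480 and 119400 CPM at 20 weeks, and 149700, 240500 and 292100 CPM at 26 weeks. CPM are the authors' raw counts brought to a common library size by the trimmed mean of M values. Ly6g, the gene of a sorting marker, averaged 1245 ± 176 CPM at 14 weeks, 481 ± 216 CPM at 20 weeks and 2829 ± 1248 CPM at 26 weeks (SD, n = 6 each). In bulk RNA of this kind, fewer cells of a type and less RNA per cell cannot be told apart.

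At 20 weeks the 5 receptor genes split into a group that was lower and a group that was higher than at 14 weeks. Fpr1, Fpr2 and Ltb4r1 fell, Ptafr and Gpr35 rose, and all 5 passed the threshold of adjusted p under 0.05, against 10.2% of all genes tested (5.27% lower and 4.93% higher). Between 20 and 26 weeks 4 of the 5 turned back: Fpr2 and Ltb4r1 rose, and Ptafr and Gpr35 fell, where 16% of all genes were called (8.03% higher, 7.98% lower). Both comparisons use the same libraries of 20 weeks, so opposite signs in them are not separate observations, here and below. At 26 weeks Fpr2 and Gpr35 were above their levels at 14 weeks and the other 3 genes were not called, where 11% of genes were called (5.45% higher, 5.54% lower). With replicate 3 of 20 weeks left out, the counts of called receptor genes were again 5, 2 and 4 in 20 against 14, 26 against 14 and 26 against 20 weeks. A single test over the 3 ages called all 5, against 23% of genes, with edgeR adjusted p between 0.000183 for Gpr35 and 0.0142 for Fpr1.

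**Figure D1:**
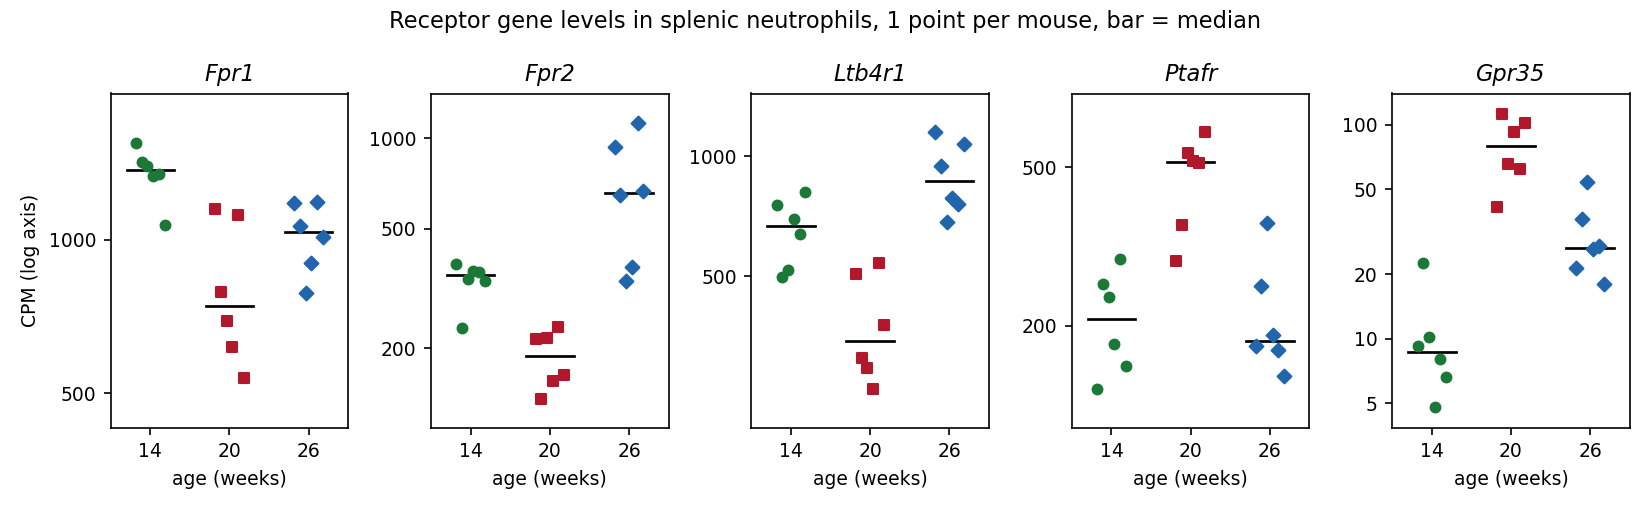
Level of each receptor gene in CPM (log axis) against age in weeks; each point is 1 mouse and the bar is the median of 6. Fpr1, Fpr2 and Ltb4r1 have their lowest medians at 20 weeks (740.9, 189.2 and 343.9 CPM), and Ptafr and Gpr35 their highest (515.7 and 79.25 CPM).

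Fpr1 encodes the receptor with the higher affinity for short formyl peptides such as those of Escherichia coli. Its lowest, median and highest libraries were at 1068, 1368 and 1547 CPM at 14 weeks, 534.8, 740.9 and 1149 CPM at 20 weeks, and 786.2, 1037 and 1183 CPM at 26 weeks. Every library of 20 weeks and every library of 26 weeks lay below the median of 14 weeks, although the ranges overlapped. The 20-week libraries spread most, with an SD of 260 CPM around a mean of 817 CPM, against an SD of 158 CPM around 1350 CPM at 14 weeks. At 20 weeks Fpr1 was 1.65-fold lower than at 14 weeks (log2 fold change -0.72 ± 0.18 SE, edgeR adjusted p = 0.0113). At 26 weeks it stayed at -0.40 ± 0.17 relative to 14 weeks, which missed the threshold (edgeR adjusted p = 0.157), and the step of 0.32 ± 0.17 from 20 weeks missed it too (0.238). When a trend with gene length was removed from each library, 26 against 14 weeks became -0.82 and passed (edgeR adjusted p = 0.00813). It also passed with only the 2 ages compared (edgeR adjusted p = 0.0475) and with limma-voom (limma-voom adjusted p = 0.0422). An exact permutation test, adjusted over the receptor genes only, called it too. Whether Fpr1 was called lower at 26 weeks thus depends on the method.

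Fpr2 encodes a receptor of broader specificity, which also binds annexin A1, serum amyloid A, cathelicidin peptides and the lipid lipoxin A4. Its lowest, median and highest libraries were at 233.2, 350.4 and 381.2 CPM at 14 weeks, 136.2, 189.2 and 235.4 CPM at 20 weeks, and 335.7, 657.9 and 1127 CPM at 26 weeks. At 20 weeks 1 library reached just above the lowest of 14 weeks, and at 26 weeks all 6 libraries lay above all 6 of 20 weeks. The libraries of 26 weeks differed widely among themselves, with an SD of 310 CPM around a mean of 682 CPM. Fpr2 fell at 20 weeks, 1.79-fold below 14 weeks (log2 -0.84 ± 0.25 SE, edgeR adjusted p = 0.0335). It rose at 26 weeks, 3.64-fold above 20 weeks (1.86 ± 0.25, edgeR adjusted p = 0.000168) and 2.03-fold above 14 weeks (1.02 ± 0.25, edgeR adjusted p = 0.0114). Libraries of 2 ages did not overlap in 5.96% of all genes in 26 against 20 weeks.

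The fall of Fpr2 at 20 weeks lay close to the threshold. It was lost when any 1 of 8 libraries was left out (replicates 1, 3, 4, 5 and 6 of 14 weeks and 2, 4 and 6 of 20 weeks), with edgeR adjusted p up to 0.0755 and a log2 fold change between -0.93 and -0.77. The rise above 14 weeks at 26 weeks kept its call in each of the 18 fits that left out a library but was 0.54 and lost it when a trend with gene length was removed (edgeR adjusted p = 0.103).

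Ltb4r1 encodes BLT1, the high-affinity receptor for leukotriene B4, which sustains the swarming of neutrophils in tissue. Its lowest, median and highest libraries were at 496.4, 667 and 812.9 CPM at 14 weeks, 260.2, 343.9 and 539.2 CPM at 20 weeks, and 685, 866.6 and 1148 CPM at 26 weeks. The 20-week libraries overlapped those of 14 weeks at their upper end and did not reach the lowest library of 26 weeks. Ltb4r1 was 1.71-fold lower at 20 weeks than at 14 weeks (log2 -0.78 ± 0.19 SE, edgeR adjusted p = 0.0127). It was 2.36-fold higher at 26 weeks than at 20 weeks (1.24 ± 0.19, edgeR adjusted p = 0.000451). Against 14 weeks, all 6 libraries of 26 weeks lay above the earlier median, but the difference of 0.46 ± 0.19 missed the threshold (edgeR adjusted p = 0.134), and it was 0.04 with a trend with gene length removed (0.940). Ltb4r2, which encodes the low-affinity receptor BLT2, had at most 0.690 CPM in any library and was not tested.

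Ptafr encodes the receptor for platelet-activating factor, a phospholipid that primes neutrophils and promotes adhesion. Its lowest, median and highest libraries were at 138.6, 208 and 293.5 CPM at 14 weeks, 290.8, 515.7 and 612.6 CPM at 20 weeks, and 149.8, 183.5 and 361.4 CPM at 26 weeks. A single 20-week library, at 290.8 CPM, fell within the range of 14 weeks, and the medians of 14 and 26 weeks were close. Ptafr was 2.25-fold higher at 20 weeks than at 14 weeks (log2 1.17 ± 0.24 SE, edgeR adjusted p = 0.00372). It was 2.17-fold lower at 26 weeks than at 20 weeks (-1.12 ± 0.24, edgeR adjusted p = 0.00309). Between 26 and 14 weeks the difference was 0.05 ± 0.23 (edgeR adjusted p = 0.940), and it took the opposite sign in 4 alternatives.

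Gpr35 was the least abundant of the receptor genes and had the largest fold change of the 5 in 20 against 14 weeks. Its lowest, median and highest libraries were at 4.804, 8.668 and 22.72 CPM at 14 weeks, 41.25, 79.25 and 112 CPM at 20 weeks, and 17.97, 26.68 and 54.26 CPM at 26 weeks. The 6 libraries of 20 weeks lay above all of 14 weeks, a pattern that 6.90% of all genes showed in this comparison, and those of 26 weeks lay in between with overlap on both sides. None of the 5 receptor genes separated 26 from 14 weeks without overlap, as 6.76% of all genes did. Gpr35 was 7.68-fold higher at 20 weeks than at 14 weeks (log2 2.94 ± 0.37 SE, edgeR adjusted p = 0.000176). At 26 weeks it was 2.59-fold lower than at 20 weeks (-1.37 ± 0.35, edgeR adjusted p = 0.0113). It was still 2.97-fold higher than at 14 weeks (1.57 ± 0.36, edgeR adjusted p = 0.00853). In raw reads these levels were 56 to 266 counts per library at 14 weeks, 502 to 1531 at 20 weeks and 129 to 957 at 26 weeks.

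**Figure D2:**
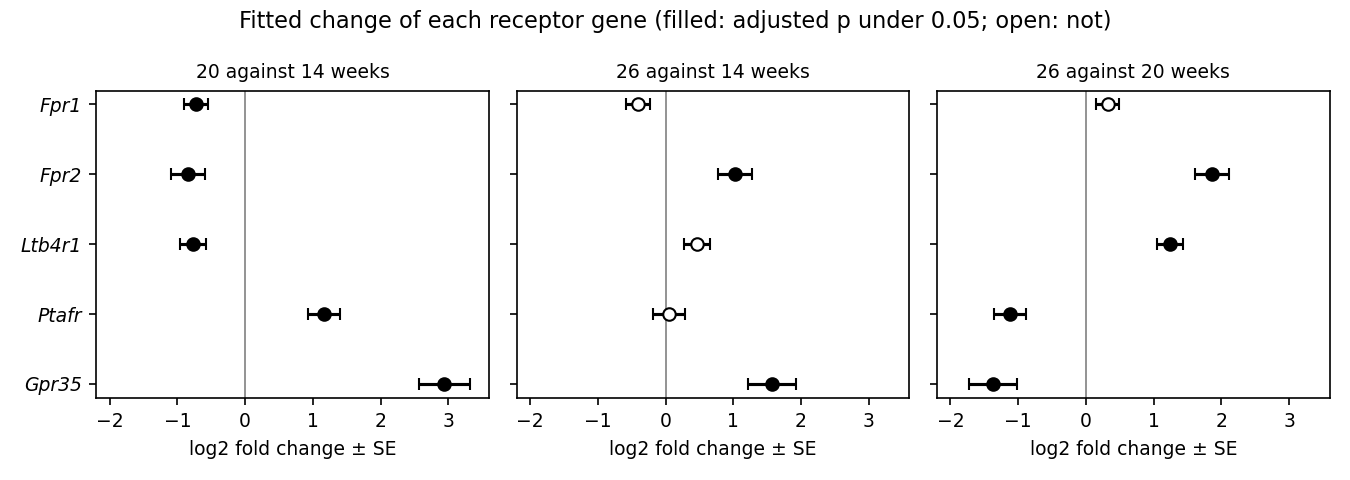
Fitted log2 fold change ± SE of each receptor gene in the 3 comparisons of ages, with 6 mice per age; filled points passed adjusted p under 0.05 and open points did not. In 20 against 14 weeks Fpr1, Fpr2 and Ltb4r1 lie between -0.84 and -0.72, Ptafr at 1.17 and Gpr35 at 2.94.

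Markers of several cell types moved with the receptor genes. Of 12 tested neutrophil markers, 9 were lower and 1 was higher at 20 weeks than at 14 weeks (5.27% and 4.93% of all genes). At 26 weeks against 20 weeks 7 were higher, as Fpr2 and Ltb4r1 were, and 1 was lower (8.03% and 7.98% of all genes). Others moved with Ptafr and Gpr35. Of the monocyte and macrophage markers, 11 of 13 were in the table and 5 were tested. At 20 weeks against 14 weeks, 4 of these 5 were higher and 1, Ly6c2, was lower (4.93% and 5.27% of all genes). Csf1r averaged 471 ± 162 CPM at 20 weeks and 190 ± 77.5 CPM at 14 weeks, Adgre1 143 ± 34.2 against 43.3 ± 20.5 CPM, and Cd68 272 ± 63.5 against 126 ± 26.0 CPM (SD, n = 6 each). At 26 weeks against 20 weeks 1 of the 5, Ly6c2, was higher and 4 were lower (8.03% and 7.98% of all genes). The summed level of this list ran from 770 to 1017 CPM at 14 weeks, 892 to 1439 CPM at 20 weeks and 786 to 1621 CPM at 26 weeks. Ly6c2 made up 58.9% of this sum at 14 weeks and 68.8% at 26 weeks, and Csf1r 39.5% at 20 weeks, so the sum does not follow most of its genes. Ccr2 and Cx3cr1 were at 0 at 14 weeks and Mertk at 20 weeks. The dendritic cell list, at least 93.6% of it Itgax, ran from 0.172 to 17.6 CPM at 14 weeks, 31.4 to 81.1 CPM at 20 weeks and 2.51 to 24.7 CPM at 26 weeks, with Xcr1 at 0 at 20 weeks. The eosinophil list ran from 9.16 to 24.9, 37.1 to 78.5 and 17.31 to 42.4 CPM at these ages, with Prg2 and Il5ra at 0 at 20 and 26 weeks. The B cell list ran from 49.5 to 199, 244 to 1873 and 85.9 to 296 CPM, and the plasma cell list from 129 to 186, 350 to 2075 and 184 to 689 CPM. A single gene made up at least 87.4% of the B cell sum at each age. The most abundant gene of each age made up 97.9%, 37.8% and 58.9% of the plasma cell sum. The basophil and mast cell list had medians of 0, 10.26 and 0 CPM and highest libraries of 2.99, 27.21 and 0.518 CPM at 14, 20 and 26 weeks. The T cell list, mostly Cd3d, ran from 117 to 155, 49.99 to 102 and 100.4 to 382 CPM. None of its 5 tested genes was called in 20 against 14 weeks (Cd3d, edgeR adjusted p = 0.0547). In 26 against 20 weeks 1, Cd3d, was higher (edgeR adjusted p = 0.00159). The part of these cells in the changes of the receptor genes was not tested.

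Ratios between receptors within a library do not depend on how libraries are scaled, and Fpr1, the most abundant, served as the common denominator. Differences are given as the later minus the earlier age. The count of Fpr2 over that of Fpr1 (lowest, median and highest library) was 0.164, 0.257 and 0.313 at 14 weeks, 0.173, 0.231 and 0.313 at 20 weeks, and 0.416, 0.635 and 0.952 at 26 weeks. The neighbours thus had similar ratios at the first 2 ages, and at 26 weeks every library lay above every earlier one. The log2 ratio of Fpr1 to Fpr2 differed by 0.08 between 20 and 14 weeks (exact permutation p = 0.697, two-sided). It differed by -1.32 between 26 and 14 weeks and by -1.39 between 26 and 20 weeks (exact permutation, adjusted p = 0.00433 for both). The merged exons of the pair are of nearly the same length, 1324 and 1296 bases.

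Ltb4r1 behaved like Fpr2 relative to Fpr1. Its count over that of Fpr1 was 0.350, 0.481 and 0.761 at 14 weeks, 0.395, 0.432 and 0.703 at 20 weeks, and 0.642, 0.883 and 1.06 at 26 weeks, so only the highest library of each earlier age reached the 26-week range. The log2 ratio of Fpr1 to Ltb4r1 differed by 0.03 between 20 and 14 weeks (exact permutation, adjusted p = 0.870). It differed by -0.87 between 26 and 14 weeks and by -0.90 between 26 and 20 weeks (exact permutation, adjusted p = 0.00764 for both). No comparison of ages called a change of the ratio of Fpr2 to Ltb4r1, whose differences were -0.05, 0.45 and 0.49 in 20 against 14, 26 against 14 and 26 against 20 weeks (exact permutation, adjusted p = 0.811, 0.145 and 0.130).

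The ratio of Ptafr to Fpr1 was among the 6 that were called in both 20 against 14 and 26 against 20 weeks, with opposite signs. These were the ratios of Fpr1, Fpr2 or Ltb4r1 to Ptafr or Gpr35, and the 2 comparisons share the libraries of 20 weeks. The count of Ptafr over that of Fpr1 was 0.0896, 0.159 and 0.219 at 14 weeks, 0.253, 0.621 and 1.15 at 20 weeks, and 0.147, 0.181 and 0.460 at 26 weeks. All 6 libraries of 20 weeks lay above all of 14 weeks, and those of 26 weeks overlapped both. Gpr35 changed more than Ptafr relative to 14 weeks: the log2 ratio of Ptafr to Gpr35 differed by -1.87 between 20 and 14 weeks and by -1.62 between 26 and 14 weeks (exact permutation, adjusted p = 0.00433 for both). Between 26 and 20 weeks this ratio differed by 0.25, which was not called (exact permutation, adjusted p = 0.346). Over all 10 pairs of receptor genes the adjusted test called 7 in 20 against 14, 4 in 26 against 14 and 8 in 26 against 20 weeks, with p adjusted over 30 tests. No share over other pairs of genes was available to set beside these counts. The pairs share genes, and a ratio of a lower to a higher gene in part restates the separate changes of the 2 genes. The smallest exact p that 6 against 6 mice allow is 0.00216.

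**Figure D3:**
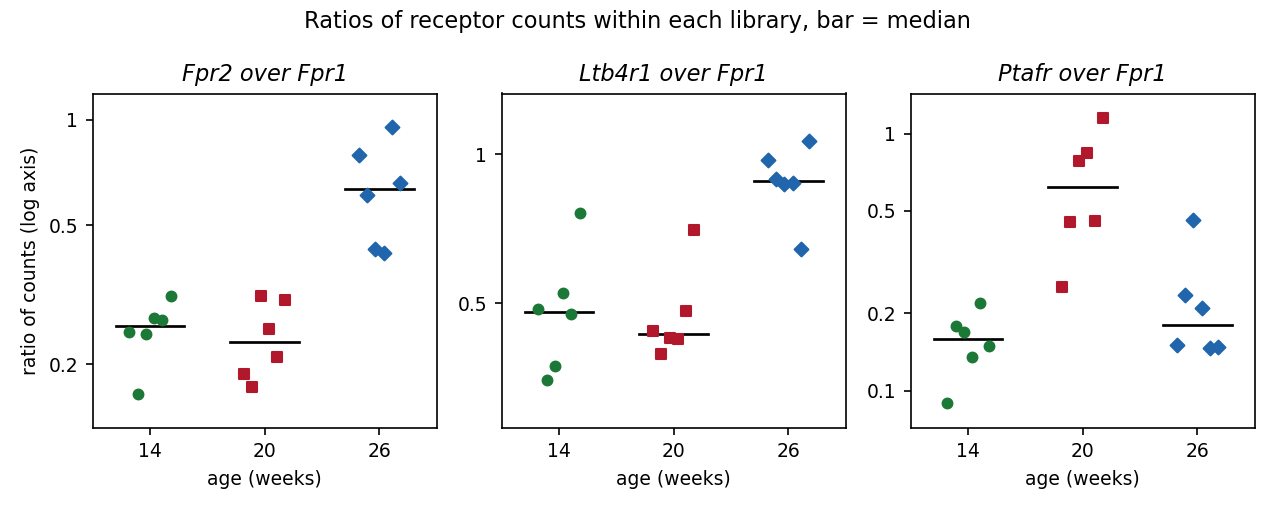
Count of Fpr2, Ltb4r1 and Ptafr over the count of Fpr1 in each library (log axis) against age in weeks; points are mice and bars medians of 6. The Fpr2 to Fpr1 ratio has medians of 0.257, 0.231 and 0.635 at 14, 20 and 26 weeks, and the Ptafr to Fpr1 ratio 0.159, 0.621 and 0.181.

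Per kilobase of exon, the order of the median levels was the same at the 3 ages: Fpr1, Ltb4r1, Fpr2, Ptafr and then Gpr35. The medians of Fpr1 were 1033, 559.6 and 783.5 CPM per kb at 14, 20 and 26 weeks, and those of Ltb4r1 478.5, 246.7 and 621.7 CPM per kb. Fpr2 stood at 270.3, 146 and 507.7 CPM per kb, Ptafr at 57.18, 141.8 and 50.45, and Gpr35 at 1.791, 16.38 and 5.513 CPM per kb. At 14 weeks no neighbours in this order overlapped. At 20 weeks Fpr2 exceeded Ptafr in 4 of 6 libraries, and their ranges overlapped. At 26 weeks Fpr1 exceeded Ltb4r1, and Ltb4r1 exceeded Fpr2, in 5 of 6 libraries each, again with overlapping ranges.

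Mice of the same age also differed from each other. At 26 weeks, replicate 3 had the lowest Fpr1, Fpr2 and Ltb4r1 of its age (786.2, 335.7 and 685 CPM) and the highest Ptafr and Gpr35 (361.4 and 54.26 CPM). It was also the library with the most counts, 17256379, and the library with the highest Fpr2, replicate 5 at 1127 CPM, had the fewest, 5546624. With the log2 library total as a covariate, Fpr2 was 0.74 higher at 26 than at 14 weeks on the log2 scale (edgeR adjusted p = 0.0309), and without replicate 3 it was 1.19 higher (edgeR adjusted p = 0.00334). Fpr1 and Fpr2 ran together over the 6 mice of 26 weeks, with Pearson's r = 0.967 and Spearman's rho = 0.943 (exact permutation p = 0.00417 and 0.0167). Without the 2 libraries farthest from the median of Fpr1, r was 0.921. Ptafr and Gpr35 gave r = 0.973 and rho = 0.829 at 26 weeks (exact permutation p = 0.00556 and 0.0583), and r = 0.813 without 2 libraries. Neither relation passed adjustment over the 30 computed (exact permutation, adjusted p = 0.0833 for each r and 0.385 for each rho), and none of the others did. Between Fpr1, Fpr2 and Ltb4r1 on one side and Ptafr and Gpr35 on the other, r was negative in 4 of 6 pairs at 14 weeks, 5 of 6 at 20 weeks and 6 of 6 at 26 weeks. The 6 pairs share genes and libraries, so they are not separate observations. Without the 2 libraries farthest from the median of the first gene of a pair, r at 26 weeks lay between -0.39 (Ltb4r1 with Gpr35) and 0.14 (Fpr1 with Gpr35).

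**Figure D4:**
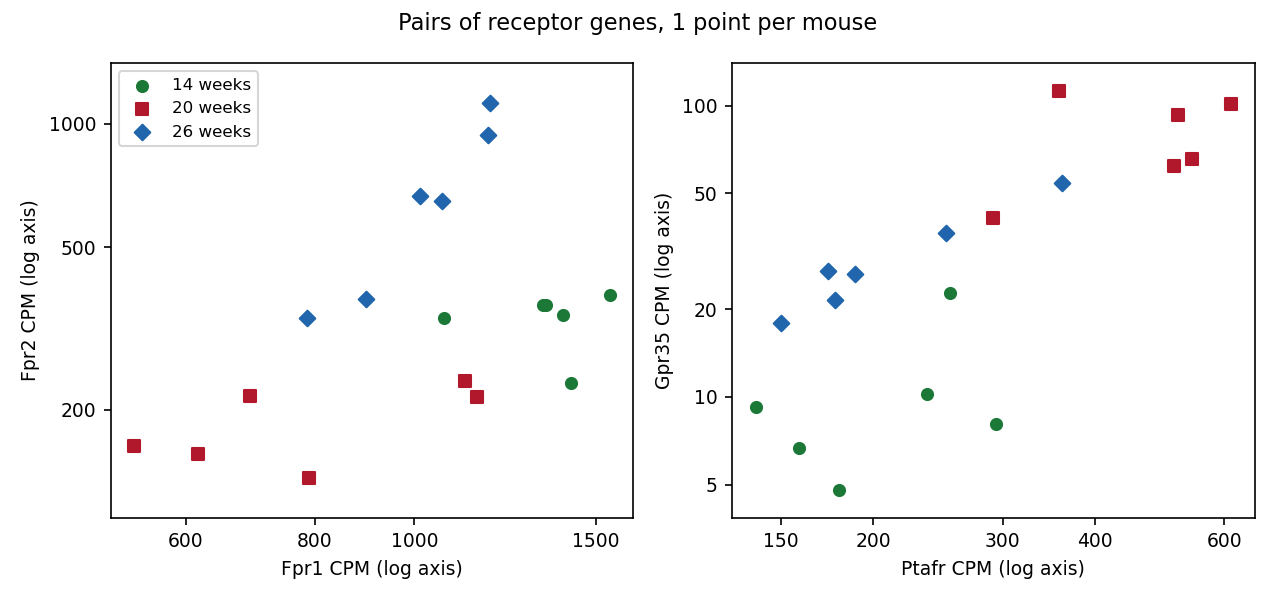
Levels in CPM (log axes) of Fpr2 against Fpr1 and of Gpr35 against Ptafr, 1 point per mouse and 1 colour per age. At 26 weeks the points rise along a line in both panels (r = 0.967 and 0.973), and at a given Fpr1 level Fpr2 is higher at 26 weeks than at the earlier ages.

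The genes whose log2 CPM followed each receptor most closely over the 18 libraries differed from receptor to receptor. This is a description over points that share age and library make-up. For Fpr2 they were Wfdc21 (r = 0.976), S100a8, a subunit of calprotectin (0.975), and Ly6g (0.974), whose product was used for the sort. For Ltb4r1 they were Prdx6, an antioxidant enzyme (0.967), Ldha, the lactate dehydrogenase subunit of glycolysis (0.961), and Clec12a, an inhibitory lectin receptor (0.955). Ptafr was followed by Fgl2 (0.971), Snap23, part of the granule fusion machinery (0.966), and Myadm (0.955). Gpr35 was followed by Marcksl1 (0.933), the long noncoding RNA Neat1 (0.930) and Ctc1 (0.922). For Fpr1 the closest were Myl2 (0.925), Ceacam10 (0.908) and Ccdc63 (0.907), of which Myl2 and Ccdc63 averaged under 20 CPM at every age.

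Enzymes that make or break down the lipid ligands also differed with age. Of 19 such genes and genes of peptide ligands, 15 were tested: 4 were higher and 1 was lower at 20 weeks than at 14 weeks (median log2 0.03, against -0.02 over all genes). At 26 weeks against 14 weeks 3 were higher and 1 lower (median 0.23, against 0.04), and at 26 weeks against 20 weeks 5 were higher and 3 lower (median -0.07, against 0.05). Of all genes tested, 4.93% were higher and 5.27% lower in 20 against 14 weeks, and 5.45% and 5.54% in 26 against 14 weeks. In 26 against 20 weeks these shares were 8.03% and 7.98%. They apply also to the lists counted below. Lpcat2, the acyltransferase that makes platelet-activating factor in inflammatory cells, averaged 1067 ± 175 CPM at 20 weeks and 599 ± 104 CPM at 14 weeks (log2 0.83 ± 0.18 SE, edgeR adjusted p = 0.00463). Pla2g7, the secreted acetylhydrolase that inactivates the same lipid, averaged 2829 ± 638 CPM at 20 weeks and 970 ± 465 CPM at 14 weeks (1.55 ± 0.33, edgeR adjusted p = 0.00466). Both thus moved in the same direction as Ptafr at 20 weeks, and Lpcat2 was lower again at 26 weeks than at 20 weeks (-1.13 ± 0.18, edgeR adjusted p = 0.000439). So was Pla2g7 (-1.24 ± 0.32, edgeR adjusted p = 0.0119), a value outside the naming rule and added after it was seen.

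On the leukotriene side, Cyp4f18, which inactivates leukotriene B4 in mouse neutrophils, averaged 2790 ± 477 CPM at 20 weeks and 1186 ± 354 CPM at 14 weeks (log2 1.23 ± 0.23 SE, edgeR adjusted p = 0.00225). It was lower at 26 weeks, at 927 ± 363 CPM, than at 20 weeks (-1.59 ± 0.23, edgeR adjusted p = 0.000296). Its changes ran opposite to those of Ltb4r1 in both comparisons, which share the libraries of 20 weeks. Lta4h, a further listed gene of leukotriene synthesis, lies outside the naming rule and was added after it was seen. It was higher at 26 than at 20 weeks, as Ltb4r1 was (1.17 ± 0.25, edgeR adjusted p = 0.00357). It was not called in 20 against 14 weeks (-0.74 ± 0.25, edgeR adjusted p = 0.0669) or in 26 against 14 weeks (0.43 ± 0.25, edgeR adjusted p = 0.333). The 2 genes of leukotriene synthesis named by the rule parted at 26 weeks. Alox5, the lipoxygenase itself, averaged 488 ± 147 CPM at 26 weeks and 942 ± 74.2 CPM at 14 weeks (-0.95 ± 0.18, edgeR adjusted p = 0.00329). Alox5ap, its membrane partner, averaged 1825 ± 588 CPM at 26 weeks and 1047 ± 91.4 CPM at 14 weeks (0.80 ± 0.18, edgeR adjusted p = 0.00774), a call lost with a trend with gene length removed (adjusted p = 0.108).

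For the peptide ligands of Fpr2, Anxa1, which encodes annexin A1, averaged 10570 ± 3623 CPM at 20 weeks and 19530 ± 3597 CPM at 14 weeks (log2 -0.89 ± 0.20 SE, edgeR adjusted p = 0.00638). At 26 weeks it averaged 20540 ± 3180 CPM, higher than at 20 weeks (0.96 ± 0.20, edgeR adjusted p = 0.00250). Camp, the cathelicidin gene, averaged 10400 ± 5785 CPM at 26 weeks against 1726 ± 955 CPM at 20 weeks (2.59 ± 0.39, edgeR adjusted p = 0.000368), and 2873 ± 829.1 CPM at 14 weeks. Saa3, a serum amyloid A gene, averaged 3.30 ± 3.39 CPM at 20 weeks and 3.15 ± 0.946 CPM at 26 weeks (edgeR adjusted p = 0.00951 and 0.0107 against 14 weeks). At 14 weeks it averaged 0.0577 ± 0.141 CPM and 1 of 6 libraries had counts, so only a rise could be called. It is among the ligand genes counted above as higher in these comparisons. Of the listed enzymes of tryptophan and kynurenine breakdown, not all of which lead to kynurenic acid, Kmo and Ccbl2 averaged at most 0.151 CPM at any age. Ido1 averaged under 2 CPM at every age.

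**Figure D5:**
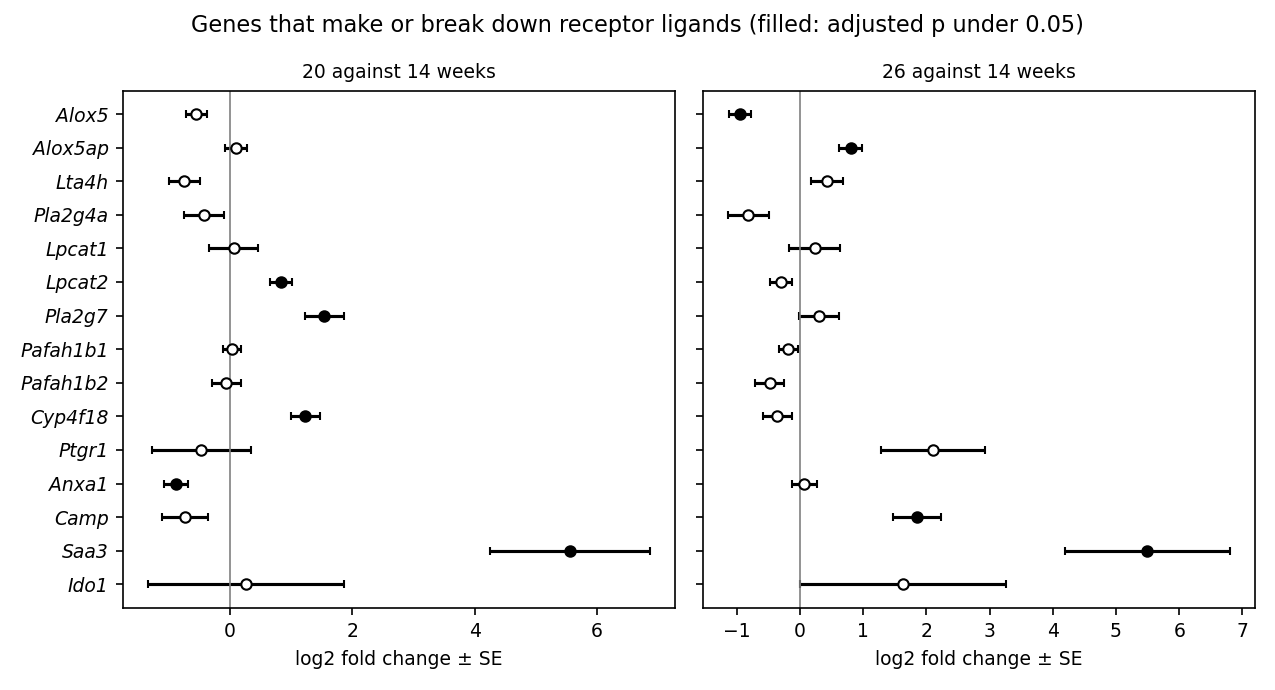
Log2 fold change ± SE of the 15 tested genes that make, break down or encode ligands of these receptors, at 20 and at 26 weeks against 14 weeks, 6 mice per age; filled points passed adjusted p under 0.05. Lpcat2, Pla2g7, Cyp4f18 and Saa3 are higher and Anxa1 lower at 20 weeks, and Alox5ap, Camp and Saa3 are higher and Alox5 lower at 26 weeks. Saa3 had almost no counts at 14 weeks, so only a rise could be called.

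Other attractant receptors did not all follow the same course. None of the 5 other formyl peptide receptor genes could be tested, and only Fpr3 was in the table. Of 21 other lipid and metabolite receptor genes 13 were tested, and 2 were higher and 2 lower at 20 weeks than at 14 weeks (median log2 0.08, against -0.02 over all genes). The prostacyclin receptor gene Ptgir averaged 33.3 ± 9.94 CPM at 20 weeks and 64.1 ± 9.50 CPM at 14 weeks (-0.94 ± 0.22 SE, edgeR adjusted p = 0.00818), and the sphingosine phosphate receptor gene S1pr4 148 ± 58.9 against 263 ± 37.5 CPM (-0.83 ± 0.21, edgeR adjusted p = 0.0146). At 26 weeks against 20 weeks 3 were higher and 2 lower (median -0.20, against 0.05), among them Ffar2, the short-chain fatty acid receptor gene, at 86.2 ± 28.4 against 22.9 ± 16.0 CPM (1.91 ± 0.41, edgeR adjusted p = 0.00363). At 26 weeks against 14 weeks 1 of 13 was called, where 11% of all genes were. This was Gpr84 with a log2 fold change of 1.15 ± 0.30 (edgeR adjusted p = 0.0181), a call lost with a trend with gene length removed (0.117).

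Among 7 tested genes of peptide and chemokine receptors, 4 were higher and none lower at 20 weeks than at 14 weeks, where 4.93% of all genes were higher. The median log2 was 0.65, against -0.02, and 2 were higher without replicate 2 of 14 weeks or replicate 6 of 20 weeks. Cxcr1 was among the higher genes there and in 26 against 14 weeks. It had no counts at 14 weeks and averaged 3.82 CPM at 20 and 0.808 CPM at 26 weeks, so only a rise could be called. C5ar1, which encodes the receptor of the complement fragment C5a, averaged 3424 ± 543 CPM at 20 weeks and 2176 ± 302 CPM at 14 weeks (0.65 ± 0.15 SE, edgeR adjusted p = 0.00683). It averaged 1797 ± 358 CPM at 26 weeks, lower than at 20 weeks (-0.93 ± 0.15, edgeR adjusted p = 0.000456). C5ar1 thus changed in the directions of Ptafr and Gpr35, opposite to Fpr2 and Ltb4r1. In 26 against 20 weeks 1 of the 7 was higher and 3 were lower (median -0.93, against 0.05), and in 26 against 14 weeks 2 were higher and 1 lower (median -0.28, against 0.04). The 1 lower gene, Cxcr2, lost its call in 20 of 30 alternatives (edgeR adjusted p up to 0.120). The 1 higher gene in 26 against 20 weeks, Cxcr4, lost its call in 5 of 30 alternatives (edgeR adjusted p up to 0.0596). These were gene length correction, only the 2 ages compared, and leaving out replicate 2 of 20 weeks or replicate 1 or 5 of 26 weeks. At 26 weeks Cxcr4, the receptor gene that holds neutrophils in marrow, averaged 262 ± 54.1 CPM, against 153 ± 25.8 CPM at 14 weeks (0.77 ± 0.19, edgeR adjusted p = 0.0138), a call lost with a trend with gene length removed (0.156).

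More genes of the shared signalling path were lower than higher at 26 weeks. Of 35 genes of G proteins and their effectors, all tested, 13 were lower and 1 was higher at 26 weeks than at 14 weeks. Over all genes 5.54% were lower and 5.45% higher. The median log2 was -0.52, against 0.04 over all genes. Without replicate 1, 2, 5 or 6 of 26 weeks 6 to 8 of the 35 were lower, and without each of the other libraries 9 to 14 were. Pik3cg, the phosphoinositide kinase gene activated by G protein subunits, averaged 134 ± 50.2 CPM at 26 weeks and 331 ± 26.7 CPM at 14 weeks (-1.30 ± 0.22 SE, edgeR adjusted p = 0.00155). Pik3cd averaged 92.3 ± 31.6 CPM at 26 weeks and 173 ± 30.6 CPM at 14 weeks (-0.91 ± 0.20, edgeR adjusted p = 0.00660). Prex1, a Rac activator, averaged 124 ± 40.7 against 220 ± 23.3 CPM (-0.83 ± 0.18, edgeR adjusted p = 0.00758). The gene that was higher was Gng5, a G protein gamma subunit, at 79.8 ± 47.6 against 28.9 ± 4.33 CPM (1.47 ± 0.31, edgeR adjusted p = 0.00598). At 20 weeks against 14 weeks 4 of the 35 were lower and none higher (median -0.21, against -0.02), and at 26 weeks against 20 weeks 8 were lower and 2 higher (median -0.15, against 0.05).

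Of 12 tested genes that switch such receptors off, 2 were higher and 1 was lower at 20 weeks than at 14 weeks (median log2 0.01, against -0.02). Adrbk2, 1 of the 2 higher genes, averaged 0.0316 CPM at 14 weeks and 2.24 CPM at 20 weeks, so only a rise could be called. It lost this call in 17 of 28 alternatives. At 26 weeks 3 were lower and none higher than at 14 weeks (median -0.24, against 0.04), and 3 were lower and 1 higher than at 20 weeks (median -0.56, against 0.05). Arrb1, which encodes beta-arrestin 1, averaged 33.6 ± 19.2 CPM at 26 weeks, against 93.4 ± 24.7 CPM at 14 weeks (-1.48 ± 0.33 SE, edgeR adjusted p = 0.00823) and 76.4 ± 20.9 CPM at 20 weeks (-1.19 ± 0.33, edgeR adjusted p = 0.0186). Adrbk1, the receptor kinase gene also called Grk2, averaged 354 ± 54.7 CPM at 26 weeks and 524 ± 119 CPM at 20 weeks (-0.56 ± 0.14, edgeR adjusted p = 0.0101). Rgs18, a regulator that speeds G protein turn-off, averaged 226 ± 63.7 CPM at 20 weeks and 381 ± 60.7 CPM at 14 weeks (-0.76 ± 0.17, edgeR adjusted p = 0.00643), a call lost with a trend with GC content removed (0.105).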

How the data were processed

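Polyadenylated RNA of sorted neutrophils was measured in 18 libraries, 6 mice at each of 3 ages given by the titles. The deposited values are raw counts per gene symbol. The submitters' processing notes list the tools HTSeq 0.6.1, STAR 2.4.2a, Trimmomatic 0.32, DESeq and DESeq2 1.12.3, and the build GRCm38.p4, without the role of each. Neither the annotation nor the strand setting is given in the sources used here. Per the labels' protocols, Nextera XT libraries of 1 ng cDNA gave single-end reads of 100 nt. Replicates differed beyond counting error (mean chi-square per gene 26.1 to 182 within an age), and counts are reads without molecular identifiers.

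The test was that of edgeR 4.0.16 under R 4.3.3 (TMM scaling, filterByExpr by age, robust quasi-likelihood F tests, 1 fit of 18 libraries with age as the only term), with Benjamini-Hochberg adjustment over 10104 genes and a threshold of 0.05. The SE is the size of the log2 fold change over the square root of F. CPM used effective library sizes; log2 CPM used a prior count of 2. Log2 ratios of 2 receptor counts used a pseudocount of 0.5 and a two-sided exact permutation test over 924 arrangements. Pathway lists were only counted. Symbols were placed with GENCODE M21 (16820 directly, 455 by a RefSeq synonym, 666 unmatched); all 5 receptor genes matched RefSeq promoter windows.

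The receptors, lists, tests and naming rule were chosen with earlier results of these data known. The rule names the 5 receptors, up to 4 called genes per list and comparison by smallest p, the 3 genes most correlated with each receptor, the most abundant or absent markers and 3 genes of the sort; the text gives a part of them, and 1 marker is not reported here. Alternatives were RLE and upper quartile scaling, scaling without 183 ribosomal and mitochondrial genes, no or a stricter filter (10 CPM in 6 libraries), library total as a covariate, loess correction for gene length or GC content, a replicate block, only the 2 ages compared, DESeq2 1.42.0, limma-voom (limma 3.58.1), exact permutation of log2 CPM and leaving out each library. Libraries with the same replicate number in their titles correlated little. Pairing by the numbers in the column names, which differ, was not examined, and the labels give no batch.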

Additional observations from a re-analysis of the deposited data

Results flagged for a closer look

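In 2 of the 15 groups examined (5 receptor genes at 3 ages), a library stood far from the other 5, by a gap over the range above Dixon's critical value of 0.625; chance flags about 1 in 20 groups. Both come from replicate 2 of 14 weeks. It had the lowest Fpr2 of its age, 233.2 CPM (gap over range 0.686), and the highest Gpr35, 22.72 CPM (0.695). Without this library, Fpr2 at 20 weeks against 14 weeks had a log2 fold change of -0.93 (edgeR adjusted p = 0.0236), and at 26 weeks against 14 weeks 0.94 (edgeR adjusted p = 0.0291). Gpr35 at 20 weeks against 14 weeks was then 3.34 (edgeR adjusted p = 4.6e-05).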

How the results depend on the processing

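The test over the 3 ages called all 5 receptor genes in every alternative, and the 19 called ratios between receptors kept their direction and call in all 228 fits without a library and with a pseudocount of 5. Of the comparisons of 2 ages, 259 of 270 without a library and 183 of 195 others kept direction and call. Fpr2 in 20 against 14 weeks was -0.77 with upper quartile factors (edgeR adjusted p = 0.0516) and -0.72 with GC content correction (0.0702), and ranged from -0.93 to -0.77 without a library. In 26 against 14 weeks with gene length correction Fpr2 was 0.54 and Fpr1 -0.82. Fpr1 was also called there with only the 2 ages compared (-0.39), limma-voom (-0.38) and the exact permutation test (-0.41, unadjusted p = 0.00649). Ltb4r1 was called with the stricter filter (0.58), the 2 ages (0.48), limma-voom (0.53) and the exact permutation test (0.46, unadjusted p = 0.0281). Thus limma-voom and the fit of 2 ages called 4 of the 5 genes. Calls of the permutation test were adjusted over the 5 receptor genes in the 3 comparisons only, not over all genes, so their threshold is less strict. Ptafr in 26 against 14 weeks was -0.046 with limma-voom, -0.02 without replicate 1 or replicate 6 of 14 weeks and -0.13 without replicate 3 of 26 weeks, in a range up to 0.17. The cause of these changes was not tested. The relations at 26 weeks of Fpr1 with Fpr2 (r = 0.861) and of Ptafr with Gpr35 (0.978) passed adjustment on log2 CPM of the library total (exact permutation, adjusted p = 0.0417 each).

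Counts of all genes called were 1030, 1111 and 1617 in 20 against 14, 26 against 14 and 26 against 20 weeks and 2321 over the 3 ages. DESeq2 called 1727, 1808 and 2553, limma-voom 2633 in 26 against 14 weeks and 4005 over the 3 ages, and the 2 ages alone 1710 in 26 against 14 weeks. That count ranged from 652 to 1544 without a library and moved by over 1.5 times without replicate 1 (652), 2 (733) or 6 (726) of 26 weeks. Upper quartile factors gave 699 higher and 429 lower genes in 26 against 14 weeks, against 551 and 560, and DESeq2 1081 and 727; the median gene then stood at 0.14 and 0.16 on the log2 scale, against 0.04. The replicate block gave 962, 946, 1573 and 2081 calls and changed no call of Fpr1, Fpr2, Ltb4r1, Ptafr or Gpr35. Of the peptide and chemokine chemoattractant receptor genes it called 2 higher in 20 against 14 weeks, against 4, and 1 higher in 26 against 14 weeks, against 2. Of the receptor desensitization genes it called 1 lower in 26 against 14 weeks, against 3. The mean correlation of deviations was 0.0171 over 18 pairs with the same replicate number in the title (from -0.0527 to 0.136). Over 90 pairs with other numbers it was -0.00302, and 6 of 18 libraries correlated best with their own number. Pairing of another kind was not tested. Without single libraries the other lipid and metabolite receptor genes gave 0 to 2 higher and 2 to 3 lower in 20 against 14 weeks and 2 to 3 higher and 0 to 4 lower in 26 against 20 weeks, and the receptor desensitization genes 0 to 2 higher in 20 against 14, 1 to 3 lower in 26 against 14 and 1 to 4 lower in 26 against 20 weeks. Depth limits Gpr35 most, with 56 to 266 counts per library at 14 weeks.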
